A study of Oryza sativa with 4 samples.

Results

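Genes that free phosphate from organic compounds, and genes that replace membrane phospholipids with lipids that hold no phosphate, were followed through the chromatin accessibility of rice (Oryza sativa) leaf blades. Members were the ATAC-seq peaks whose assigned gene was described as an acid phosphatase, a glycerophosphodiester phosphodiesterase (GDPD), a phospholipase C or D, a mono- or digalactosyldiacylglycerol (MGDG or DGDG) synthase or a sulfoquinovosyl enzyme. Peaks whose gene symbol was PAP, MGD, DGD, SQD or GDPD followed by a number were also members. The rule found 150 peaks at 77 genes, of 46114 peaks at 27131 genes in all, which is 0.325% of the peaks. Of these, 65 peaks matched by description alone, 39 by symbol alone and 46 by both.

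The label describes most of the members but not every one. In all, 115 peaks at 61 genes had the name of one of these enzyme families in their description or symbol. They include 4 peaks at kinase genes whose description contains a GDPD name. The other 35 peaks at 16 genes matched through wording or a symbol that does not by itself name such an enzyme. The symbol PAP also stands for plastid-lipid-associated proteins, structural proteins of plastid lipid bodies, which gave 19 peaks at 8 genes. A further 13 peaks at 7 genes had a PAP symbol and a description that names no acid phosphatase. The last 3 peaks lie at LOC_Os11g34370, a patatin-like phospholipase domain gene whose description contains the letters of phospholipase D. These 35 peaks are described apart. Many symbols in the deposited table are borrowed from other species, and PAP2 is given to several different genes, so the rice locus identifiers are used below.

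ATAC-seq tags open DNA with the Tn5 transposase, and the number of reads in a peak measures how accessible that stretch was. The 2 Oshmgb1 mutant libraries and the 2 wild-type (WT) libraries were all made from leaf blades after 28 days of the treatment labelled HP, a term the labels do not expand. OsHMGB1 carries the high mobility group box, a domain that bends DNA, and the series title places it in phosphate homeostasis. The sources used here do not give the type of mutation, the number of mutant lines or the number of plants per library. The labels do not say that the libraries came from separate plants, so each p-value rests on the spread among libraries that may be technical repeats. A leaf blade holds many cell types, so fewer cells with an open site and less opening per cell cannot be told apart.

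Plants short of phosphate secrete purple acid phosphatases that split phosphate from organic esters, and such enzymes also recycle phosphate inside the cell. Phospholipases C and D break down membrane phospholipids, while GDPD enzymes hydrolyse the glycerophosphodiesters left when the acyl chains have been removed. The diacylglycerol that is released can be built into galactolipids by MGDG and DGDG synthases and into sulfolipid by the SQD enzymes, which saves phosphate in plastid and other membranes. Transcripts of many of these genes are known to rise when phosphate is scarce.

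Sequencing depth within listed peaks was 10400677 and 8516630 reads in Oshmgb1 replicates 1 and 2, and 7228483 and 8183354 in WT replicates 1 and 2. Levels are given in CPM, the reads of a peak scaled to a common library total after TMM normalisation, and as CPM per kb of peak where peaks of different length are compared. The median member peak had 158 and 139 reads in the Oshmgb1 libraries and 107.5 and 130 in the WT libraries, and the lowest count of any member was 30. Levels at photosynthesis genes were set beside those at genes used in roots. The 21 peaks at light-harvesting genes had a median level of 61.5 CPM per kb and the 6 at Rubisco small subunit genes 54.3 CPM per kb. The 7 peaks at Casparian strip genes, which are used in roots, had a median of 29.1 CPM per kb, a little above the 25.6 CPM per kb of all peaks. The 3 peaks at nicotianamine synthase genes, also taken as root markers, had a median of 21.1 CPM per kb. Only listed peaks were compared and annotation class was not matched, so these levels do not settle organ identity. LOC_Os06g51220, listed under the symbol HMGB2, was taken as OsHMGB1 from background knowledge. Its promoter peak had 112.5 and 114.8 CPM in Oshmgb1 and 124.0 and 135.6 CPM in WT. The exon peak of that gene had 29.88 and 28.69 CPM in Oshmgb1 and 30.86 and 31.65 CPM in WT. Accessibility of the gene does not show whether its product was lost.

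Members were spread over 12 chromosomes and over the whole of their genes. By the authors' annotation, 60 of the 150 peaks (40%) lay in promoters, up to 2 kb upstream of the gene start, against 35.1% of all peaks. Exons held 33 members (22%, against 20.6% of all peaks), introns 30 (20%, against 18%) and 5′ UTRs 13 (8.67%, against 6.97%). Only 7 members lay downstream of their gene, which is 4.67% against 11.7% of all peaks, and 7 lay in 3′ UTRs (4.67%, against 7.64%). A promoter or 5′ UTR peak was listed for 57 of the 77 genes. The median member was 511.5 bp long, with a range of 239 to 2330 bp, and the median of all peaks was 560 bp.

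The members lay a little above all peaks in level. Their median level was 28.2 CPM per kb, with a range of 15.8 to 74.6. All peaks had a median of 25.6 CPM per kb and a range of 10.7 to 2020. The 73 members in promoters and 5′ UTRs had a median of 32.0 CPM per kb and the other 77 a median of 26.7, beside 29.2 and 24.0 CPM per kb for all peaks of those classes. In 23 of the 30 member genes with a listed peak both near the start and elsewhere, the most open peak was the one near the start. That count was not made over all genes, so it cannot be read as a trait of the members. Within their own annotation class, 19 members lay above the 90th percentile of level and 8 below the 10th. The median member stood at percentile 62.7 of its class.

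The most open members included promoters of acid phosphatase and sulfolipid genes. At LOC_Os05g09724, an acid phosphatase 1 gene, the promoter peak averaged 74.6 CPM per kb, above 97.6% of promoter peaks. It held 100.7 and 118.2 CPM in the Oshmgb1 libraries and 120.8 and 115.1 CPM in the WT libraries, so the genotypes overlapped. A promoter peak of OsSQD2 (LOC_Os07g01030), which transfers sulfoquinovose to diacylglycerol as the last step of sulfolipid synthesis, averaged 69.2 CPM per kb. The promoter of a second acid phosphatase 1 gene, LOC_Os06g36400, stood at 66.5 CPM per kb and the 5′ UTR peak of the purple acid phosphatase gene LOC_Os06g48570 at 65.2. Among the plastid-lipid-associated genes the promoter of LOC_Os01g46720 stood at 63.15 CPM per kb. A peak of 61.4 CPM per kb assigned to the downstream side of the DGDG synthase gene LOC_Os03g11560 lay nearer to the start of another gene, LOC_Os03g11550. At the phospholipase D alpha 1 gene LOC_Os01g07760 each of the 4 peaks was above the 90th percentile of its class, chosen here after the values were seen.

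**Figure D1:**
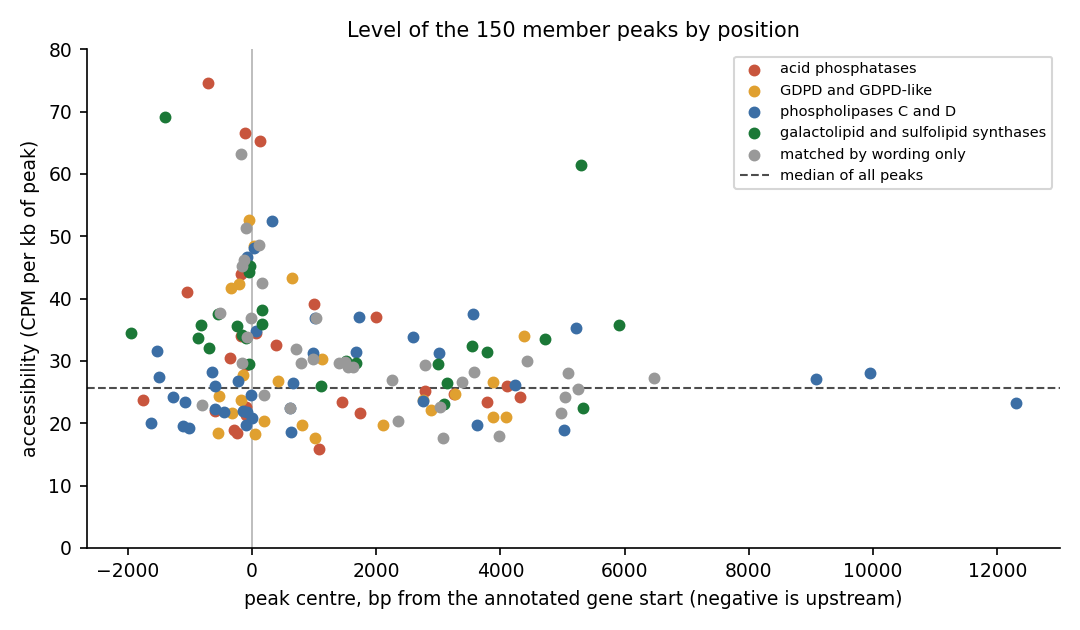
Level of each of the 150 member peaks (vertical axis, CPM per kb of peak, mean of the 4 libraries) against the distance of its centre from the annotated gene start in bp, coloured by branch of the pathway. The 5 highest members lie within 2 kb of the gene start, and the next, at 61.4 CPM per kb, is the one assigned to the downstream side of a DGDG synthase gene. The dashed line is the median of all peaks, 25.6 CPM per kb.

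No member differed between Oshmgb1 and WT at an adjusted p under 0.05. With p-values from the quasi-likelihood test of edgeR, adjusted by Benjamini-Hochberg over all 46114 peaks, 0 of 150 members passed, where 0.403% of all peaks did. The peaks called in the whole table were 148 higher (0.321%) and 38 lower (0.0824%) in Oshmgb1. With library totals taken from the deposited RPKM instead of TMM, the split over all peaks was 133 higher and 88 lower. DESeq2 also called 0 members (0.0976% of all peaks), and 0 had an FDR under 0.05 in the authors' deposited table (0.102% of all peaks). The lowest adjusted p of any member was 0.0782.

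At an unadjusted p under 0.05, 16 members (10.7%) passed in edgeR, beside 12.2% of all peaks. Of these, 10 were higher in Oshmgb1, beside 6.94% of all peaks in that direction, and 6 were lower, beside 5.22%. DESeq2 gave 6 members at an unadjusted p under 0.05 (3.78% of all peaks), and the authors' deposited table gave 6 (4.79%). In 57 members (38.0%) every Oshmgb1 library lay on one side of every WT library, beside 43.2% of all peaks. Of these, 31 were higher and 26 lower in Oshmgb1, beside 21.6% of all peaks in each direction. These shares of the members were near those of all peaks. The 16 peaks spread over 15 genes and 7 role groups. The genotypes did not overlap in any of the 16, which their choice by low p favours.

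The differences were small as well as uncalled. Over the 150 members the median log2 fold change (Oshmgb1 over WT) was 0.004, the interquartile range was -0.134 to 0.16, and the full range was -0.542 to 0.76. Over all peaks the median was -0.007 and the interquartile range -0.157 to 0.166. Members were above 0 in 77 cases and below in 73. Summed over the members, accessibility was 3008 and 3031 CPM in the Oshmgb1 libraries, against 3054 and 3060 CPM in the WT libraries. The sums over all peaks were also lower in both Oshmgb1 libraries, at 992900 and 993200 CPM against 1014000 and 1000000 CPM in WT. The median standard error was 0.196 on the log2 scale. The 95% interval excluded a 2-fold difference in either direction for 145 members (96.7%, beside 95.2% of all peaks). It excluded a 1.5-fold difference for 94 members (62.7%, beside 57.9%). For the remaining members a 1.5-fold difference was not excluded.

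**Figure D2:**
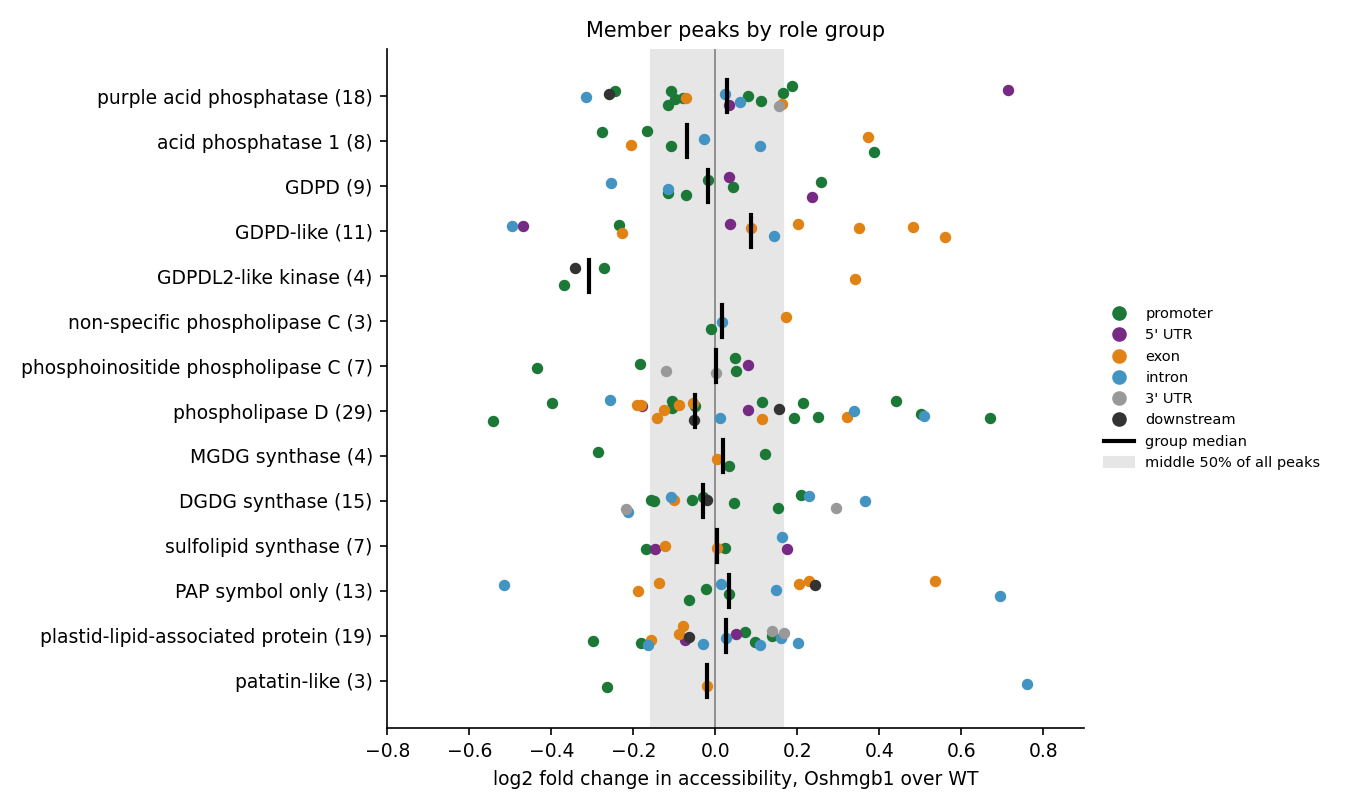
Log2 fold change in accessibility (Oshmgb1 over WT, horizontal axis) of every member peak, in rows by role with the number of peaks in brackets and coloured by annotation class. Black bars mark the group medians and the grey band is the interquartile range of all peaks, -0.157 to 0.166. The role medians run from -0.31 in the GDPDL2-like kinase genes to 0.09 in the GDPD-like genes, and each role has peaks on both sides of 0.

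The acid phosphatases gave the member with the lowest p. The 12 purple acid phosphatase genes had 18 peaks, of which 0 passed the adjusted test, 10 lay above 0 and 8 below, with a median log2 fold change of 0.028 that became -0.016 with library totals taken from the RPKM. OsPAP10a (LOC_Os01g56880), a root-associated purple acid phosphatase of rice that phosphate shortage induces, had its most open peak in the 5′ UTR at chromosome 1, 32852323 to 32852758, in the authors' coordinates, for which the sources used here name no build. That peak held 18.8 and 18.5 CPM in the Oshmgb1 libraries and 12.2 and 10.6 CPM in the WT libraries. Both Oshmgb1 libraries lay above both WT libraries. Its mean was 18.7 ± 0.187 CPM in Oshmgb1 and 11.4 ± 1.11 CPM in WT (SD, n = 2 each), a log2 fold change of 0.71 ± 0.20 (SE, 95% interval 0.32 to 1.11) with an adjusted p of 0.0782 in edgeR. The authors' deposited table gave it a p of 0.0077 and an FDR of 0.956. The other peaks of the gene, in an intron and in the 3′ UTR, were at log2 fold changes of 0.06 and 0.16.

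Other purple acid phosphatase genes with known roles in rice were closer to WT. OsPAP21b (LOC_Os11g05400), a secreted enzyme induced by phosphate shortage, had 38.9 and 43.7 CPM in its promoter peak in Oshmgb1, against 49.2 and 48.4 CPM in WT. Both Oshmgb1 libraries were below both WT libraries, with a log2 fold change of -0.24 ± 0.12 (SE) and an adjusted p of 0.413 in edgeR. OsPAP26 (LOC_Os06g43640), which recycles phosphate within the cell, is listed as a phosphoenolpyruvate phosphatase and is therefore no member by the rule. Its 4 peaks had log2 fold changes of -0.115 to 0.228. OsPAP10c (LOC_Os12g44020), a close relative of OsPAP10a, had no listed peak, while 3 neighbours with the symbol PAP2 had one each (LOC_Os12g44010, LOC_Os12g44030 and LOC_Os12g44050). The most open peak of the family, at LOC_Os06g48570, had 44.7 and 41.8 CPM in Oshmgb1 and 41.1 and 43.4 CPM in WT. The lowest log2 fold change of the family, -0.31 ± 0.22 (SE), was that of an intron peak at LOC_Os03g37130, at -0.059 without Oshmgb1 replicate 1 and -0.585 without Oshmgb1 replicate 2.

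The 6 acid phosphatase 1 genes, whose products belong to a different protein family from the purple enzymes, had 8 peaks with a median log2 fold change of -0.068. None of these 8 had an unadjusted p under 0.05, where 12.2% of all peaks did. In the promoter of LOC_Os06g36400 the peak held 28.0 and 25.5 CPM in Oshmgb1 and 33.7 and 31.3 CPM in WT, a log2 fold change of -0.28 ± 0.15 (SE). That of LOC_Os05g10210 held 11.3 and 10.3 CPM in Oshmgb1 and 8.70 and 7.82 CPM in WT, at 0.39 ± 0.23 (SE). The genotypes did not overlap in either peak, and the directions were opposite. LOC_Os05g09680, LOC_Os05g09724 and LOC_Os05g10210 are neighbours with the same description, and whether they are near-identical copies was not checked. The sources used here do not say how reads that match several copies were assigned, so the values of these genes remain uncertain.

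GDPD genes gave no directional pattern. Their 9 peaks at 5 genes had a median log2 fold change of -0.019 and a range of -0.255 to 0.258. Of these, 0 had an unadjusted p under 0.05, where 12.2% of all peaks did. OsGDPD2 (LOC_Os02g31030), which is listed under the symbol GDPD1 and is known to respond to phosphate shortage, had 11.2 and 10.5 CPM in its promoter peak in Oshmgb1 and 11.1 and 10.02 CPM in WT. The GDPD-like genes, whose relatives in Arabidopsis act in cell wall formation, had 11 peaks at 4 genes with a median of 0.088. The exon peak of LOC_Os02g37590 (GDPDL3) held 14.9 and 17.3 CPM in Oshmgb1, against 11.8 and 10.02 CPM in WT. Both Oshmgb1 libraries lay above both WT libraries, at a log2 fold change of 0.56 ± 0.21 (SE) and an adjusted p of 0.231 in edgeR. The lowest value of the group, -0.49 ± 0.25 (SE), was in an intron of LOC_Os02g09440, and was -0.997 without Oshmgb1 replicate 1 and -0.161 without Oshmgb1 replicate 2.

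The GDPDL2-like kinase genes had 3 of 4 peaks lower in Oshmgb1 without overlap, as 21.6% of all peaks were. Their descriptions join a GDPD name to a protein kinase domain, so they are receptor-like kinases rather than scavenging enzymes by that wording. Each of the 4 genes on chromosome 1 (LOC_Os01g02370, LOC_Os01g02550, LOC_Os01g02700 and LOC_Os01g02730) had 1 peak, and the median log2 fold change was -0.307. Upstream of LOC_Os01g02700 the promoter peak held 74.8 and 78.1 CPM in Oshmgb1, against 91.8 and 92.9 CPM in WT, a log2 fold change of -0.27 ± 0.10 (SE). That of LOC_Os01g02550 held 28.7 and 26.9 CPM in Oshmgb1, against 35.2 and 36.8 CPM in WT, at -0.37 ± 0.14 (SE). Both promoters were lower in each Oshmgb1 library than in either WT library, with adjusted p-values of 0.235 and 0.249 in edgeR. The downstream peak of LOC_Os01g02370 was at -0.34 and the exon peak of LOC_Os01g02730 at 0.34. Without WT replicate 1 these were -0.164 and -0.059, and without WT replicate 2 the exon peak was at 0.954. The 4 genes lie close together and share a description, so they are not independent observations.

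Among the phospholipases C, 1 of the peaks had an unadjusted p under 0.05, where 12.2% of all peaks did. Non-specific phospholipases C (NPC), which cleave common membrane phospholipids to diacylglycerol and are linked to galactolipid supply in Arabidopsis, had 3 peaks at 2 genes. The promoter peak of NPC1 (LOC_Os03g61130) held 61.7 and 54.6 CPM in Oshmgb1 and 64.2 and 53.3 CPM in WT, with a log2 fold change of -0.01 ± 0.11 (SE). Its exon peak was at 0.17 and the intron peak of NPC2 (LOC_Os01g72520) at 0.02. Phosphoinositide phospholipases C, which act in signalling, had 7 peaks at 3 genes with a median of 0.000. At LOC_Os07g49330 the promoter peak centred at -602 bp from the gene start held 13.7 and 12.6 CPM in Oshmgb1, against 18.0 and 17.6 CPM in WT, at -0.43 ± 0.20 (SE). The 5′ UTR peak beside it was at 0.08, and the genotypes overlapped there.

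Phospholipase D, which yields phosphatidic acid, was the largest group, with 29 peaks at 13 genes and a median log2 fold change of -0.049. Of these peaks, 4 were higher and 2 lower at an unadjusted p under 0.05, where 6.94% and 5.22% of all peaks were. The intron peak of LOC_Os06g44060, described as phospholipase D Z, held 34.2 and 28.9 CPM in Oshmgb1, against 20.9 and 23.5 CPM in WT. Both Oshmgb1 libraries were higher, with a log2 fold change of 0.51 ± 0.16 (SE) and an adjusted p of 0.121 in edgeR. The second intron peak of the gene, named after its value was seen, was at 0.34 ± 0.24 (SE), with 8.5 and 10.5 CPM in Oshmgb1 against 8.42 and 6.60 CPM in WT.

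Phospholipase D genes also held the widest spread along 1 gene. Phospholipase D zeta, which in Arabidopsis takes part in galactolipid accumulation under phosphate limitation, is represented by LOC_Os05g29050, with 6 peaks, and by LOC_Os01g20860. The promoter peak of LOC_Os01g20860, named after its value was seen, was at 0.11 ± 0.18 (SE), and the genotypes overlapped. At LOC_Os05g29050 a promoter peak was centred at -451 bp from the gene start. It held 6.68 and 7.23 CPM in Oshmgb1, against 11.8 and 8.55 CPM in WT. Its log2 fold change was -0.54 ± 0.23 (SE), and -0.301 without WT replicate 1. The next peak upstream, centred at -1117 bp and named after its value was seen, held 6.87 and 10.8 CPM in Oshmgb1, against 5.47 and 6.84 CPM in WT, at 0.50 ± 0.25 (SE). The neighbouring peaks thus had opposite signs, each without overlap between genotypes and with adjusted p-values of 0.315 and 0.393 in edgeR. Over the 6 peaks the sum was 70.2 and 77.8 CPM in Oshmgb1 and 75.8 and 76.1 CPM in WT, which overlap. Opposite signs were also found at the neighbouring phospholipase D alpha 2 genes. LOC_Os06g40170 had 7.45 and 7.81 CPM in its promoter peak in Oshmgb1, against 5.75 and 3.91 CPM in WT (0.67 ± 0.25, SE, and 0.407 without WT replicate 2), while a promoter peak of LOC_Os06g40190, again named afterwards, was at -0.40 ± 0.19 (SE).

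**Figure D3:**
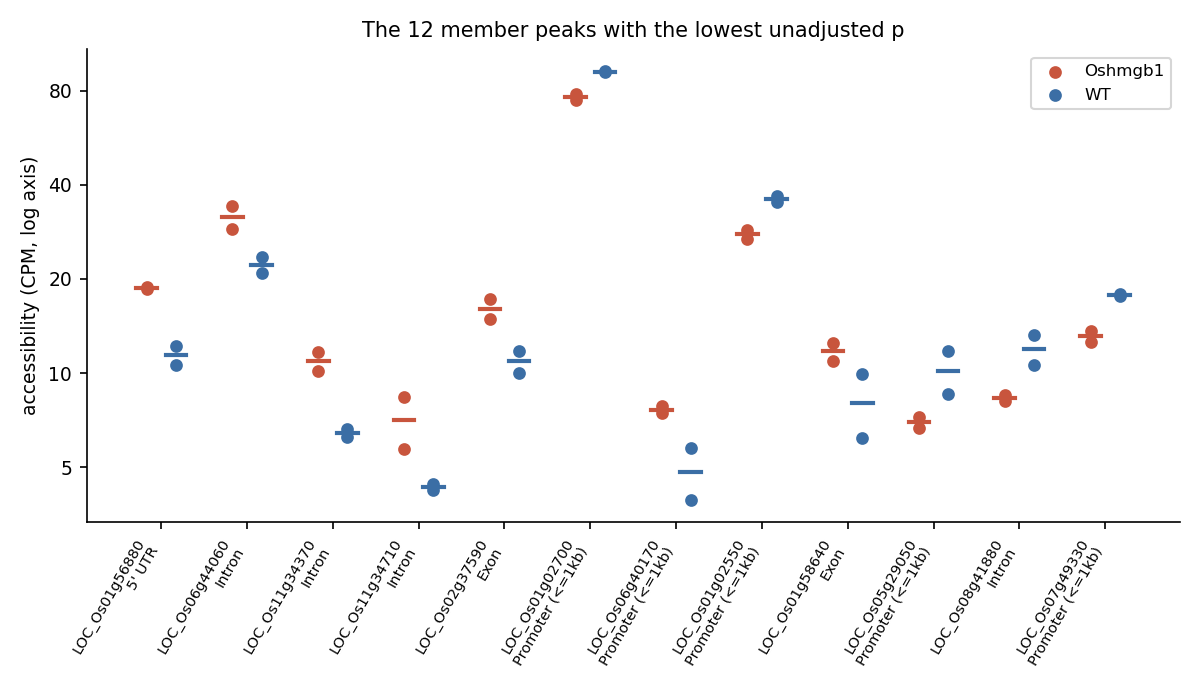
Accessibility in CPM (log axis) of the 12 member peaks with the lowest unadjusted p, with 1 point per library and a bar at the mean of each genotype, Oshmgb1 to the left of WT. The genotypes do not overlap in any of them, which their choice by low p favours. In Oshmgb1 7 are higher and 5 lower, and none has an adjusted p under 0.05.

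Every galactolipid and sulfolipid synthase peak missed the unadjusted threshold as well, which 12.2% of all peaks passed. MGDG synthases, which make the precursor galactolipid, had 4 peaks at 3 genes with a median log2 fold change of 0.018. The promoter peak of LOC_Os02g55910 (MGD3) nearest the gene start held 10.98 and 14.1 CPM in Oshmgb1 and 15.0 and 15.4 CPM in WT, at -0.29 ± 0.20 (SE, -0.103 without Oshmgb1 replicate 1 and -0.47 without Oshmgb1 replicate 2), and its second promoter peak was at 0.03. MGD1 (LOC_Os09g25580) was at 0.12 in its promoter and MGD2 (LOC_Os08g20420) at 0.00 in an exon. DGDG synthases had 15 peaks at 5 genes with a median of -0.031, of which 0 had an unadjusted p under 0.05. The lowest unadjusted p among them, 0.0745, was that of an intron peak of LOC_Os11g05990 with 42.5 and 48.0 CPM in Oshmgb1 and 39.1 and 38.0 CPM in WT. The genotypes did not overlap there, and the log2 fold change was 0.23 ± 0.13 (SE).

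Sulfolipid synthesis showed the narrowest range of any branch with more than 5 peaks. The 7 peaks at 4 genes lay between -0.17 and 0.18, with a median of 0.005. At an unadjusted p under 0.05 there were 0, beside 12.2% of all peaks. OsSQD1 (LOC_Os05g32140), which makes UDP-sulfoquinovose, had 31.2 and 28.2 CPM in its 5′ UTR peak in Oshmgb1, against 27.2 and 25.5 CPM in WT, at 0.18 ± 0.15 (SE). The promoter peak of OsSQD2 (LOC_Os07g01030) held 26.7 and 27.6 CPM in Oshmgb1 and 33.7 and 27.6 CPM in WT, at -0.17 ± 0.15 (SE), and its exon peak was at -0.12. The genotypes overlapped at both OsSQD2 peaks, and both Oshmgb1 libraries were above both WT libraries at OsSQD1. At LOC_Os03g15840, which also has the symbol SQD2, both Oshmgb1 libraries were below both WT libraries in the 5′ UTR peak. That peak held 53.3 and 61.7 CPM in Oshmgb1, against 62.3 and 64.6 CPM in WT, at -0.15 ± 0.11 (SE).

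Of the members that matched through other wording, 0 passed the adjusted test either. The plastid-lipid-associated genes had 19 peaks between -0.298 and 0.202 and 0 at an unadjusted p under 0.05, where 12.2% of all peaks were. Among the 13 peaks with a PAP symbol alone, an intron peak of LOC_Os11g34710 held 5.73 and 8.40 CPM in Oshmgb1 and 4.21 and 4.40 CPM in WT, at 0.70 ± 0.26 (SE), and was among the least open of all members. That log2 fold change was 0.966 without Oshmgb1 replicate 1 and 0.41 without Oshmgb1 replicate 2. An intron peak of LOC_Os08g41880 was at -0.51 ± 0.22 (SE). The highest log2 fold change of all members, 0.76 ± 0.24 (SE), belonged to an intron peak of the patatin-like gene LOC_Os11g34370, with 10.1 and 11.7 CPM in Oshmgb1 and 6.59 and 6.23 CPM in WT and an adjusted p of 0.130 in edgeR. The other peaks of that gene were at -0.02 in an exon and -0.26 in the promoter, which was -0.15 without Oshmgb1 replicate 1.

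Peaks of 1 member gene seldom shared a sign. The same count was not made over all genes, so it cannot be called particular to the members. Of the 39 member genes with at least 2 peaks, 5 had every log2 fold change above 0, 2 had every one below 0 and 32 were mixed. In 0 of these genes did every peak have an unadjusted p under 0.05. OsPAP10a and LOC_Os06g44060 were among the 5, and OsSQD2 was 1 of the 2. Summed over its 3 peaks, OsPAP10a had 62.5 and 58.3 CPM in Oshmgb1, against 51.8 and 48.9 CPM in WT. Summed over 2 peaks, LOC_Os06g44060 had 42.7 and 39.4 CPM in Oshmgb1, against 29.3 and 30.1 CPM in WT. In both genes the Oshmgb1 libraries were above the WT libraries. Each sum includes the peak already picked for its low p, so it is not a separate observation.

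**Figure D4:**
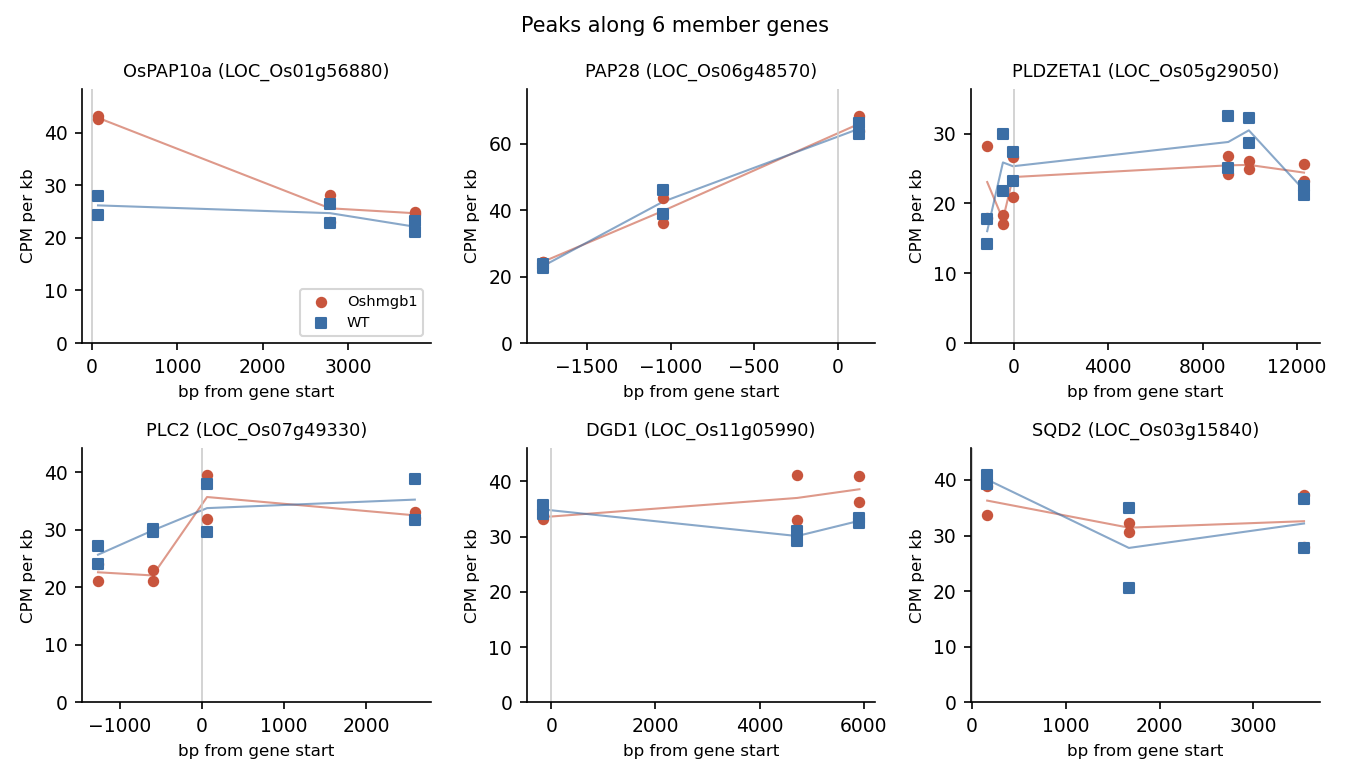
Accessibility (CPM per kb of peak) along 6 member genes by distance of the peak centre from the gene start in bp, with 1 point per library and lines through the genotype means. The genotypes are apart at the 5′ UTR peak of OsPAP10a and close at its other peaks, cross between the neighbouring promoter peaks of LOC_Os05g29050, and overlap at all 3 peaks of LOC_Os06g48570 but the farthest upstream.

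Other genes of phosphate and lipid metabolism, taken by their descriptions, were set beside the members. Diacylglycerol kinases and acyltransferases, phosphatidate and lipid phosphate phosphatases, phospholipases A, pyrophosphatases, S-like ribonucleases and lipid transfer proteins gave 107 peaks at 58 genes. Of these, 0 passed the adjusted test, and at an unadjusted p under 0.05 there were 5 higher and 3 lower in Oshmgb1, where 6.94% of all peaks were higher and 5.22% lower. Their median log2 fold change was -0.049. Phosphate transporters and SPX genes, which take up phosphate and sense its supply, gave 30 peaks at 18 genes, of which 0 passed the adjusted test, with a median of 0.041. At an unadjusted p under 0.05, 5 of the 30 were counted, 3 higher and 2 lower, beside 12.2% of all peaks.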

How the data were processed

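ATAC-seq peaks were analysed in 2 Oshmgb1 and 2 WT libraries. Per the submitters' processing notes, Bowtie2 2.4.4, MACS2 2.1.2, ChIPseeker 1.16.1, fastp 0.23.0 and bcl2fastq 2.19 were used. The sources used here do not give the genome build, the Tn5 shift, the removal of duplicates or the handling of reads with several matches. Per the file headers, the authors deposited whole-number read counts and RPKM for each library and merged peak, a log2 fold change of group means, and a p-value and FDR. The read counts deposited by the authors were tested. The RPKM deposited by the authors served only to recover library totals, from peaks above 300 reads. The deposited log2 fold change is given by the authors and was not used further, and their deposited p-value and FDR served only for comparison. The columns held 0 of other samples.

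Counts were fitted in R 4.3.3 with edgeR 4.0.16 (TMM, default filter, which removed 0 peaks, quasi-likelihood test without covariates, Benjamini-Hochberg adjustment over 46114 peaks). Standard errors came from the fold change and F statistic. CPM used TMM-scaled reads in listed peaks. DESeq2 1.42.0, other scalings and filters, a replicate block and leaving out each library were alternatives. Figures used Python 3.11.15 and matplotlib 3.10.9. Replicates differed by more than sampling noise (chi-square over its degrees of freedom, 2.25 in Oshmgb1 and 2.50 in WT), so none was counted as a duplicate.

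Members and lists were chosen with earlier results of these data known. Peaks listed for naming were, in each role, those with the lowest p, the highest and lowest log2 fold change and the highest level. Every peak of groups of 5 or fewer and of 7 genes known from rice phosphate work was also listed. Not every listed peak is named in the text. Any other peak named was picked after its value was seen. No sequence was used, and a planned motif search was not run.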

Additional observations from a re-analysis of the deposited data

How the results depend on the processing

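Member calls stayed at 0 under all 12 alternative fits and with the authors' deposited FDR, and the median log2 fold change of the members lay between -0.039 (library totals behind the RPKM) and 0.023 (reads in listed peaks as library size), against 0.004. It was -0.04 over promoter peaks alone and 0.012 with 1 peak per gene. Calls over all peaks, 186 in edgeR, were 45 in DESeq2 and 75 to 530 when 1 library was left out: 103 without Oshmgb1 replicate 1, 75 without Oshmgb1 replicate 2, 198 without WT replicate 1 and 530 without WT replicate 2. Those fits assume that the lone library varies like the others, and the cause of the differences was not tested. With the replicate number as a block, calls over all peaks were 179 and members called 0. Same-numbered libraries did not deviate together (correlation -0.0384 over 2 numbers). With so few libraries this cannot tell whether same-numbered libraries were handled together. The 5′ UTR peak of OsPAP10a kept a log2 fold change of 0.616 to 0.812, with an adjusted p of 0.0681 to 0.376 in edgeR and 1 in DESeq2. Signs changed in 0 to 15 members under another scaling, filter, test or block, and in 20 to 31 with a library left out. Of 168 role medians under alternatives, 15 moved by more than the spread between replicates, 13 of them with a library left out. The 95% intervals, set by depth, by the spread between libraries and by their number, excluded a 1.5-fold difference for 94 of 150 members.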
